A study of Mus musculus with 24 samples.

Results

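The genes described here are the machinery of 2 lytic forms of cell death, pyroptosis and necroptosis, in mouse kidney. They are 10 genes taken from a list by symbol, out of 54532 gene identifiers counted: Nlrp3, Aim2, Pycard, Casp1, Casp4, Gsdmd, Casp8, Ripk1, Ripk3 and Mlkl. All 10 were found, and all 10 were among the 17286 genes with enough counts to be tested. Bulk RNA sequencing of kidney was available for 24 libraries. One genotype was deficient for LRP2 (megalin, the endocytic receptor of the proximal tubule) in proximal tubule cells, per the series record, and is called KO; wild-type littermates are called WT. Both were fed a Western diet for 2 or 12 weeks, which gave 6 libraries each of KO at 2 weeks, WT at 2 weeks, KO at 12 weeks and WT at 12 weeks. All 24 libraries therefore share the diet, and no mice on another diet were analysed here. The labels write the mice as PTC LRP2-SM22 -/- and +/+ without explaining the name, and the driver of the deletion, the deleted exons, the age of the mice and the composition of the diet are not stated in the labels. The labels do not say that each library came from its own mouse, so p-values measure the spread between these libraries, which may in part be technical.

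In pyroptosis, a sensor protein such as NLRP3 or AIM2 detects danger signals or cytosolic DNA and binds the adaptor ASC (encoded by Pycard), which gathers and activates caspase-1. Caspase-1 matures the cytokines interleukin-1 beta and interleukin-18 and cuts gasdermin D (Gsdmd), whose freed end forms pores in the plasma membrane. The mouse enzyme encoded by Casp4, also called caspase-11, recognises bacterial lipopolysaccharide in the cytosol and cuts gasdermin D directly. In necroptosis, RIPK1 signals from death receptors to RIPK3, which phosphorylates the pseudokinase MLKL so that it breaches the membrane; caspase-8 holds this route in check by cutting RIPK1 and RIPK3 and can itself start apoptosis. In the kidney both routes are studied in acute tubular injury and in inflammation of the interstitium, and inflammasome genes are expressed by macrophages as well as by tubular cells. The counts measure messenger RNA and do not show cleavage, phosphorylation or cell death.

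Libraries held 16.3 to 25.2 megacounts in KO and 15.6 to 34.1 megacounts in WT at 2 weeks, and 11.3 to 15.2 megacounts in KO and 11.4 to 14.5 megacounts in WT at 12 weeks. Levels are given as CPM, counts per megacount of library after TMM scaling over the 24 libraries. Lrp2 was lower in every KO library than in any WT library at both durations: it averaged 352 ± 142 CPM in KO and 2005 ± 261 CPM in WT at 2 weeks, and 323 ± 73.1 CPM in KO and 1876 ± 382 CPM in WT at 12 weeks (SD, n = 6 each). The 2-week and 12-week libraries were in separate series of files, so time on the diet and the series of libraries cannot be told apart. The predicted gene Gm42418, named after its values were seen, held 0 counts in each 2-week library and 71635 to 424892 counts in each 12-week library; its part in the comparisons between durations was not tested. Summed proximal tubule markers lay between 7667 and 21467 CPM in the 24 libraries, with none of the 12 markers at 0 in any group. The sums were 7667 to 11910 CPM in KO and 13952 to 19822 CPM in WT at 2 weeks, and 8331 to 13007 CPM in KO and 14834 to 21467 CPM in WT at 12 weeks. Lrp2 itself is one of the 12; the other 11 summed to 7475 to 11478 CPM in KO and 12364 to 17645 CPM in WT at 2 weeks, and to 8024 to 12651 CPM in KO and 13424 to 18964 CPM in WT at 12 weeks. In bulk samples, fewer cells of a type and less RNA per cell cannot be told apart.

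At 2 weeks all 10 genes passed the test as higher in KO (edgeR's quasi-likelihood test, Benjamini-Hochberg adjusted p under 0.05), where 18.2% of all tested genes were called higher. At 12 weeks 8 of 10 were called higher, against 20.7% of all tested genes. None of the 10 was called lower at either duration, where 13.4% and 17.7% of all tested genes were. The median log2 fold change of the 10 genes, KO over WT, was 1.31 at 2 weeks and 1.38 at 12 weeks, beside -0.01 and 0.00 for all tested genes. For 8 of the 10 genes every KO library was above every WT library at 2 weeks, which held for 10.3% of all tested genes; at 12 weeks this was so for 6 of the 10, against 10.1%. The lytic caspase Casp4 had the largest of the 10 fold changes at both durations, and Casp8 and Ripk1, which also serve apoptosis and survival signalling, had the smallest.

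**Figure D1:**
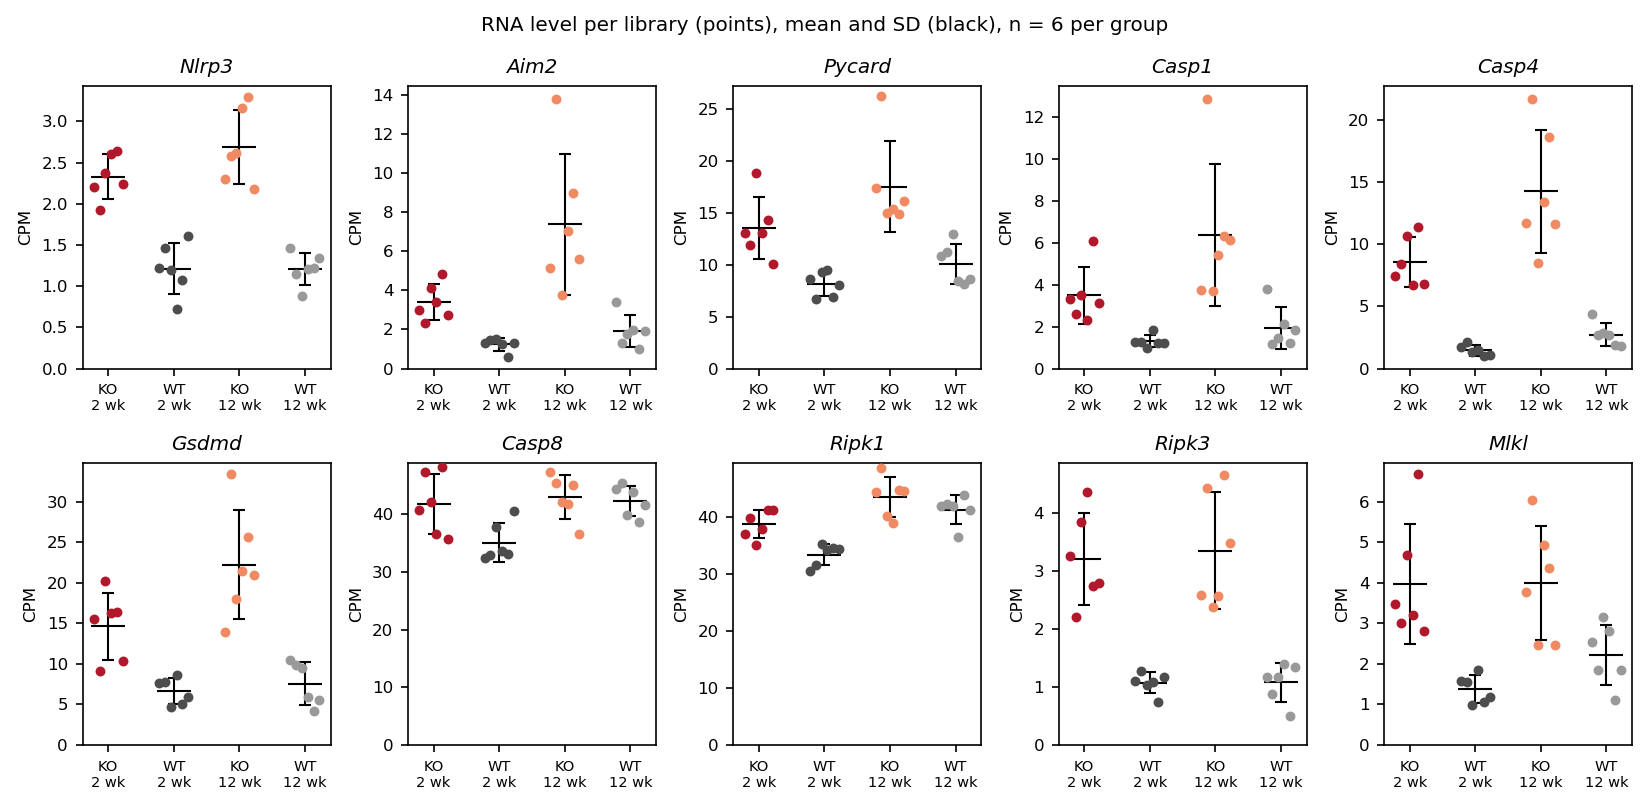
CPM of each of the 10 genes in every library, KO left of WT within each duration (n = 6 libraries per group); each panel has its own axis, points are libraries, and black lines give the group mean and SD. Casp4 stood at 6.73 to 11.4 CPM in KO and 1.01 to 2.14 CPM in WT at 2 weeks, while Casp8 and Ripk1 overlapped between the genotypes.

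Of the sensors, Nlrp3 (ENSMUSG00000032691, chr11:59541568-59566956, plus strand, mm10) is the best known inflammasome receptor for sterile danger signals. Its CPM ran from 1.92 through a median of 2.3 to 2.64 in KO and from 0.723 through 1.21 to 1.61 in WT at 2 weeks. After 12 weeks its CPM ran from 2.18 through 2.6 to 3.3 in KO and from 0.886 through 1.22 to 1.46 in WT. The genotypes did not overlap at either duration. The log2 fold change was 0.97 (SE 0.21, adjusted p = 0.0014) at 2 weeks and 1.17 (SE 0.20, adjusted p = 0.00039) at 12 weeks. These levels rest on 34 to 62 counts per KO library and 14 to 44 per WT library at 2 weeks, and on 30 to 56 counts per KO library and 9 to 16 per WT library at 12 weeks, so Nlrp3 is measured with few reads.

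Aim2 (ENSMUSG00000037860, chr1:173350879-173466040, plus strand) senses double-stranded DNA in the cytosol. It measured from 2.32 through 3.2 to 4.82 CPM in KO, against 0.604 through 1.3 to 1.51 CPM in WT, at 2 weeks. Aim2 at 12 weeks measured 5.16, 13.8, 3.77, 7.05, 8.96 and 5.58 CPM in KO replicates 1 to 6, against 3.42, 1.33, 1.77, 1.96, 1.02 and 1.93 CPM in WT replicates 1 to 6. Every KO library was above every WT library at both durations, and KO replicate 2 at 12 weeks was the highest of all 24. The fold change was 2.78 (log2 1.47, SE 0.23, adjusted p = 8.5e-05) at 2 weeks and 3.94 (log2 1.98, SE 0.33, adjusted p = 0.00038) at 12 weeks; without KO replicate 2 the log2 fold change at 12 weeks was 1.71. The locus of Aim2 overlaps Cadm3 on the other strand, but the annotation shows no shared exon bases.

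The adaptor Pycard (ENSMUSG00000030793, chr7:127989708-127993867, minus strand) had the smallest fold changes of the 6 pyroptosis genes at both durations. It measured from 10.1 through 13 to 18.8 CPM in KO and from 6.68 through 8.32 to 9.5 CPM in WT at 2 weeks. The 12-week libraries ranged from 14.9 through 15.7 to 26.2 CPM in KO and from 8.12 through 9.73 to 12.9 CPM in WT. The groups did not overlap at either duration, with a fold change of 1.69 (adjusted p = 0.00047) at 2 weeks and 1.78 (adjusted p = 0.00084) at 12 weeks. At 12 weeks KO replicate 2 stood alone at 26.2 CPM, the next KO library being at 17.4 CPM, and without it the log2 fold change was 0.68 in place of 0.83. Of the exon bases of Pycard, 12.8% also lie in an unconfirmed transcript on the opposite strand, and how counting treated strand is not stated, so reads there cannot be assigned to a strand.

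Casp1 and Casp4 lie next to each other on the plus strand of chromosome 9, Casp1 (ENSMUSG00000025888) at chr9:5298517-5307265 and Casp4 (ENSMUSG00000033538) at chr9:5308828-5336783. Casp1 measured 3.33, 2.6, 3.51, 2.32, 6.11 and 3.14 CPM in KO replicates 1 to 6, against 1.28, 1.27, 0.988, 1.86, 1.21 and 1.24 CPM in WT, at 2 weeks. Casp1 at 12 weeks measured 3.76, 12.9, 3.69, 5.44, 6.31 and 6.16 CPM in KO and 3.81, 1.15, 1.48, 2.15, 1.22 and 1.84 CPM in WT. The genotypes separated fully at 2 weeks; at 12 weeks 4 of 6 KO libraries were above all WT libraries, since WT replicate 1 reached 3.81 CPM. The fold change was 2.72 (log2 1.44, SE 0.24, adjusted p = 0.00015) at 2 weeks and 3.33 (log2 1.74, SE 0.35, adjusted p = 0.0015) at 12 weeks. The log2 fold change at 12 weeks was 1.42 without KO replicate 2 and 2.04 without WT replicate 1. The WT libraries held 18 to 46 counts of Casp1 at 2 weeks and 12 to 39 at 12 weeks, so single WT values are coarse.

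Casp4 measured 7.41, 8.43, 10.7, 6.73, 11.4 and 6.84 CPM in KO replicates 1 to 6, against 1.75, 2.14, 1.3, 1.5, 1.01 and 1.06 CPM in WT, at 2 weeks. The 12-week values were 11.7, 21.7, 8.53, 13.4, 18.6 and 11.6 CPM in KO and 4.39, 2.66, 2.86, 2.71, 1.93 and 1.84 CPM in WT. The lowest KO library stood well above the highest WT library at both durations, at 6.73 against 2.14 CPM at 2 weeks and 8.53 against 4.39 CPM at 12 weeks. The fold change was 5.88 (log2 2.56, SE 0.20, adjusted p = 4.4e-08) at 2 weeks and 5.32 (log2 2.41, SE 0.25, adjusted p = 9.7e-06) at 12 weeks. Its summed counts were 1100 in KO and 193 in WT at 2 weeks, and 1200 in KO and 174 in WT at 12 weeks.

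The promoters of these neighbouring caspases are shown because one gene had the largest fold change of the 10 and the other has a role in the same pathway; that of Nlrp3, the other member with a match, follows. The windows run from 250 bases before to 50 bases after an annotated start (RefSeq, GRCm38.p6, the build called mm10), and capitals mark matches to the NF-kappa B motif on either strand. The Casp4 window is chr9:5308599-5308898, that of Casp1 chr9:5298267-5298566 and that of Nlrp3 chr11:59541319-59541618, all on the plus strand and written 5′ to 3′.
Casp4: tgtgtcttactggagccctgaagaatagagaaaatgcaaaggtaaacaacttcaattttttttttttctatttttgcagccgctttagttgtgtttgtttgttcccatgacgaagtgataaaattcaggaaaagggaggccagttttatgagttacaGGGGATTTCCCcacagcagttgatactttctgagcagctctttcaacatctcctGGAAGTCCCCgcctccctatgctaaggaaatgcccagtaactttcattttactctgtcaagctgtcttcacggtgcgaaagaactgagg
Casp1: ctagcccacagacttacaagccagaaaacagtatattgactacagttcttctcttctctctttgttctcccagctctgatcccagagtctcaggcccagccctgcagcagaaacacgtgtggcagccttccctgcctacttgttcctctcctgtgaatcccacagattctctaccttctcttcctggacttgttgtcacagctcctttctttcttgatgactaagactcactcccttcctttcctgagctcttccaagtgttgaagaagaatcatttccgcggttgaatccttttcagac
Nlrp3: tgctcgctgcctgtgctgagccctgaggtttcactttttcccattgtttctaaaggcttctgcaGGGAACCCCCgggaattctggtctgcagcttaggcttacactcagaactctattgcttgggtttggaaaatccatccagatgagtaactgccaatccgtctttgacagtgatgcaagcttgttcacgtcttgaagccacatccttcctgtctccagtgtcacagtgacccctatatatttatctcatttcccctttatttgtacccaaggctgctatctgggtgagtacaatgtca

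Windows were present for 9 of the 10 genes, 12 windows in all; Gsdmd had none. The Casp4 window held 2 stretches with the NF-kappa B motif. The stretch from -93 to -83, counted from the start, contains a pair of overlapping matches, and the other runs from -39 to -30. The Nlrp3 window held 1 stretch from -186 to -177, which matches on both strands, and the Casp1 window held no match. A second Casp4 window, shifted by a few bases, holds the same stretches, and the second window of Nlrp3 holds none. An NF-kappa B match was present in 8.46% of the 32851 promoter windows of the genome table. Here it was present in 3 of the 12 windows, which belong to 2 of the 9 genes. The interferon-stimulated response element was present in 3.44% of all windows and the gamma-activated site TTCNNNGAA in 8.3%. Each was matched on either strand in 1 of the 12 windows, the second window of Ripk1 at chr13:34002624-34002923. Such matches describe letters in the windows and do not show binding.

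Gsdmd (ENSMUSG00000022575, chr15:75862327-75867408, plus strand) encodes the pore-forming protein on which both inflammatory caspases act. It measured 15.5, 9.11, 20.2, 16.3, 16.4 and 10.4 CPM in KO replicates 1 to 6, against 7.64, 7.75, 4.73, 8.67, 5.03 and 5.96 CPM in WT, at 2 weeks. The 12-week values were 14, 33.4, 18, 21.5, 25.7 and 21 CPM in KO and 10.5, 9.92, 9.46, 5.88, 4.16 and 5.53 CPM in WT. All KO libraries were above all WT libraries at both durations. The fold change was 2.25 (log2 1.17, SE 0.20, adjusted p = 0.00028) at 2 weeks and 2.99 (log2 1.58, SE 0.25, adjusted p = 0.00033) at 12 weeks.

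Casp8 (ENSMUSG00000026029, chr1:58795374-58847503, plus strand) stands at the fork between apoptosis and necroptosis. It measured from 35.6 through 41.4 to 48.1 CPM in KO and from 32.3 through 33.3 to 40.6 CPM in WT at 2 weeks, with 4 of 6 KO libraries above all WT libraries. The 12-week range was from 36.5 through 43.6 to 47.3 CPM in KO and from 38.6 through 42.7 to 45.3 CPM in WT, and the groups lay on top of each other. The log2 fold change was 0.28 (SE 0.09, adjusted p = 0.021) at 2 weeks. The log2 fold change at 12 weeks was 0.05 (SE 0.07, adjusted p = 0.58), with a 95% interval from -0.08 to 0.19.

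Ripk1 (ENSMUSG00000021408, chr13:34002363-34037147, plus strand), the kinase that links death receptors to both survival and death, followed the pattern of Casp8. It measured from 35.1 through 38.8 to 41.2 CPM in KO and from 30.5 through 34.2 to 35.3 CPM in WT at 2 weeks, with 5 of 6 KO libraries above all WT libraries. The 12-week range was from 38.9 through 44.4 to 48.6 CPM in KO and from 36.4 through 41.8 to 43.8 CPM in WT. The log2 fold change was 0.24 (SE 0.07, adjusted p = 0.0099) at 2 weeks and 0.11 (SE 0.07, adjusted p = 0.22, 95% interval -0.02 to 0.24) at 12 weeks. Of its exon bases 2.89% are shared with genes on the opposite strand and 6.12% with a pseudogene on its own strand.

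Ripk3 (ENSMUSG00000022221, chr14:55784995-55788865, minus strand), the kinase that activates MLKL, was about 3 times higher in KO. It measured 3.26, 2.21, 3.84, 4.36, 2.74 and 2.8 CPM in KO replicates 1 to 6, against 1.11, 1.27, 1.04, 1.08, 0.738 and 1.18 CPM in WT, at 2 weeks. The 12-week values were 2.58, 4.43, 2.38, 2.57, 4.66 and 3.48 CPM in KO and 1.17, 0.886, 1.18, 1.4, 0.508 and 1.34 CPM in WT. The groups did not overlap at either duration. The fold change was 3.04 (log2 1.60, SE 0.21, adjusted p = 1.2e-05) at 2 weeks and 3.13 (log2 1.65, SE 0.26, adjusted p = 0.00024) at 12 weeks. The WT libraries held 11 to 40 counts at 2 weeks and 5 to 16 counts at 12 weeks, so single WT values are coarse.

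Mlkl (ENSMUSG00000012519, chr8:111311797-111338177, minus strand), the executioner of necroptosis, separated the genotypes at 2 weeks and overlapped at 12 weeks. It measured 3.48, 3, 4.69, 3.2, 6.68 and 2.8 CPM in KO replicates 1 to 6, against 1.58, 1.56, 0.988, 1.86, 1.07 and 1.18 CPM in WT, at 2 weeks. After 12 weeks the values were 3.76, 6.04, 2.46, 4.92, 4.36 and 2.47 CPM in KO and 2.54, 1.86, 3.15, 2.8, 1.12 and 1.84 CPM in WT, with 4 of 6 KO libraries above all WT libraries. The fold change was 2.92 (log2 1.54, SE 0.24, adjusted p = 8.2e-05) at 2 weeks and 1.84 (log2 0.88, SE 0.27, adjusted p = 0.02) at 12 weeks. Leaving out single libraries at 12 weeks kept the adjusted p between 0.0099 and 0.047. The WT libraries held 16 to 57 counts of Mlkl at 2 weeks and 11 to 32 at 12 weeks, so single WT values are coarse.

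**Figure D2:**
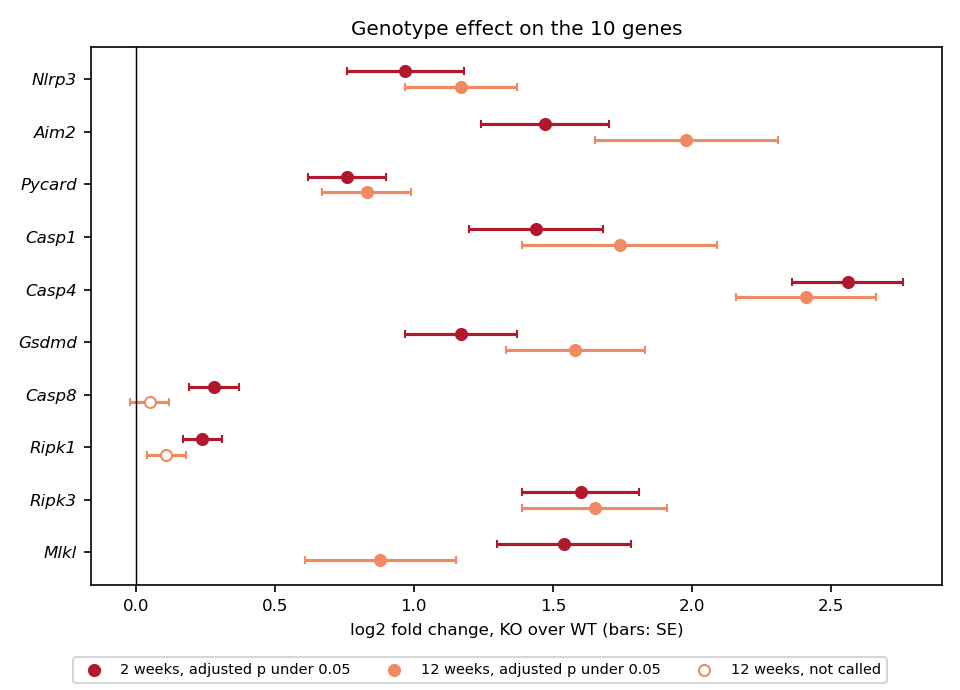
Log2 fold change of the 10 genes, KO over WT, at 2 and 12 weeks (n = 6 libraries per group); bars are standard errors and open circles are values that were not called at an adjusted p under 0.05. Casp4 lay farthest right at 2.56 and 2.41, and Casp8 and Ripk1 nearest to 0.

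The genotype effect was compared between the durations in 1 model over the 24 libraries. None of the 10 genes was called for a difference of the effect by edgeR, and none by DESeq2 or at an unadjusted p under 0.05; of all tested genes 0.174% were called. For Casp8 the log2 effect at 12 weeks minus that at 2 weeks was -0.23 (SE 0.11, adjusted p = 0.48). For Mlkl the difference was -0.66 (SE 0.37, adjusted p = 0.54, 95% interval -1.40 to 0.07). For Ripk1 it was -0.14 (SE 0.09, adjusted p = 0.62), for Aim2 0.51 (SE 0.41, adjusted p = 0.68) and for Gsdmd 0.42 (SE 0.33, adjusted p = 0.68). The calls of Casp8 and Ripk1 at 2 weeks alone are therefore not shown to be a difference between the durations.

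Within KO, 5 of the 10 genes were called higher at 12 than at 2 weeks, against 17.7% of all tested genes, and none lower, against 16.1%. They were Aim2 (log2 1.11, SE 0.27, adjusted p = 0.0019), Casp1 (log2 0.86, SE 0.29, adjusted p = 0.021), Casp4 (log2 0.73, SE 0.21, adjusted p = 0.008), Gsdmd (log2 0.60, SE 0.23, adjusted p = 0.042) and Ripk1 (log2 0.17, SE 0.06, adjusted p = 0.04). In all 5 the groups overlapped, as they did in all but 7.03% of tested genes in the higher direction. Without KO replicate 2 at 12 weeks, 2 calls were left, Aim2 at 0.85 and Casp4 at 0.58, while Casp1 had 0.54 (adjusted p = 0.11), Gsdmd 0.45 (adjusted p = 0.13) and Ripk1 0.14 (adjusted p = 0.11). Aim2 and Casp4 were called in every fit that left out 1 of the 12 KO libraries. Gsdmd was called in 3 of those 12 fits, Ripk1 in 4, and Casp1 in 10, its call ending also without KO replicate 4 at 2 weeks (log2 0.77). The count was 3 without KO replicate 1 or 2 at 2 weeks or KO replicate 5 or 6 at 12 weeks, and 2 without KO replicate 4 at 2 weeks. Cell type markers called over time in KO are given below, and their part in these calls was not tested.

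Within WT, 3 of the 10 genes were called higher at 12 than at 2 weeks, against 15.8% of all tested genes, and none lower, against 14.7%. Ripk1 had a log2 fold change of 0.31 (SE 0.06, adjusted p = 0.0006), and all its 12-week libraries were above all its 2-week libraries, which held for 8.28% of all tested genes. Casp8 had 0.27 (SE 0.08, adjusted p = 0.011) and Casp4 had 0.87 (SE 0.26, adjusted p = 0.011), both with overlap. The call of Casp4 ended without WT replicate 1 at 12 weeks (log2 0.67, adjusted p = 0.057) and that of Casp8 without WT replicate 1 at 2 weeks (log2 0.22, adjusted p = 0.051) and without a filter on low counts (log2 0.23). Mlkl at 0.67 missed the threshold (adjusted p = 0.067) and passed it without WT replicate 5 at 12 weeks (log2 0.80, adjusted p = 0.033).

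Levels of different genes were set side by side after division by exon length, in CPM per kilobase. Exon length here is that of all annotated exons of a gene merged, such as 3800 bases for Pycard and 2893 for Casp8. It may be longer than the transcripts present, which were not measured, so the order of genes depends on the annotation. By this measure Casp8 was the highest of the 10 in all 4 groups. Its means were 14.4 in KO and 12.1 in WT at 2 weeks and 14.9 in KO and 14.6 in WT at 12 weeks. Gsdmd came after it in KO, at 6.16 and 9.37 at 2 and 12 weeks, and behind Ripk1 in WT. In WT at 2 weeks Ripk1 had 4 and Gsdmd 2.79 with no overlap of their ranges, and at 12 weeks Ripk1 had 4.94 and Gsdmd 3.19 with overlap. In KO the ranges of Gsdmd and Ripk1 overlapped at 2 weeks and not at 12 weeks, where Gsdmd and Casp8 overlapped.

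Casp4 ranked above Mlkl and Ripk3 in KO, at 2.32 and 3.84 CPM per kilobase at 2 and 12 weeks. In WT at 2 weeks it ranked below both at 0.393. In these 3 groups its range overlapped that of Mlkl. Nlrp3 was the lowest of the 10 in every group, at 0.574 in KO and 0.3 in WT at 2 weeks and 0.663 in KO and 0.299 in WT at 12 weeks. Its range was below that of the next gene in both KO groups and overlapped it in both WT groups.

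**Figure D3:**
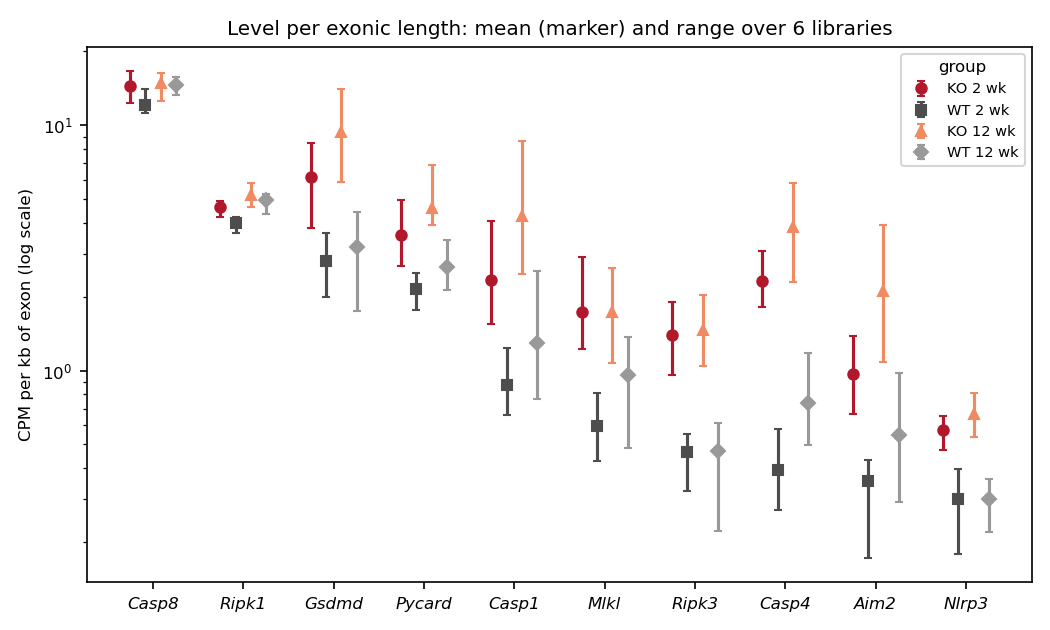
Mean level of the 10 genes in CPM per kilobase of exon on a log axis, KO left of WT within each duration (error bars: lowest to highest of 6 libraries). Exon length is that of all annotated exons merged, so the order of genes depends on the annotation. Casp8 was highest at 12.1 to 14.9 and Nlrp3 lowest at 0.299 to 0.663.

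Single libraries were the highest of their group for several of the 10 genes at once. At 12 weeks KO replicate 2 was the highest KO library for 7 of the 10 genes, namely Aim2, Pycard, Casp1, Casp4, Gsdmd, Ripk1 and Mlkl. At 2 weeks KO replicate 5 was the highest for 7 of the 10, and among the WT libraries at 12 weeks replicate 1 was the highest for 5. The coefficient of variation over KO libraries at 12 weeks was 53.1% for Casp1 and 48.7% for Aim2, beside 8.84% for Casp8 and 8.11% for Ripk1. The count of 8 genes called higher at 12 weeks was also 8 without KO replicate 2.

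Markers of leukocytes moved with the genotype. The 5 pan-leukocyte markers summed to 118 to 208 CPM in KO and 40.2 to 62.4 CPM in WT at 2 weeks, and to 195 to 583 CPM in KO and 49.6 to 122 CPM in WT at 12 weeks. All 5 were called higher in KO at both durations. Of all tested genes 18.2% at 2 weeks and 20.7% at 12 weeks were called higher, the shares to set beside every marker list. The 14 macrophage and monocyte markers summed to 481 to 1185 CPM in KO and 159 to 216 CPM in WT at 2 weeks, and to 703 to 1447 CPM in KO and 175 to 397 CPM in WT at 12 weeks; 13 and 14 of 14 were called higher. None of these 19 markers was at 0 in a whole group. KO replicate 2 at 12 weeks had the highest sum of both lists among the KO libraries, and WT replicate 1 at 12 weeks that among the WT libraries of its duration. KO replicate 5 at 2 weeks, the highest for 7 of the 10 genes, was not the highest in these 2 sums. It had 195 CPM of pan-leukocyte and 876 CPM of macrophage markers, against 208 and 1185 CPM in KO replicate 3. KO replicate 5 was the highest of its group in the sums of dendritic cell markers (65.1 CPM) and tubular injury markers (10917 CPM).

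T and natural killer cell markers summed to 12.4 to 22.8 CPM in KO and 5.04 to 9.94 CPM in WT at 2 weeks, and to 19.5 to 93.6 CPM in KO and 4.86 to 10.9 CPM in WT at 12 weeks, with 6 and 7 of 9 tested markers called higher. B cell and plasma cell markers summed to 49.1 to 311 CPM in KO and 26 to 50 CPM in WT at 2 weeks, and to 58.3 to 1275 CPM in KO and 18.1 to 109 CPM in WT at 12 weeks, with 2 of 6 called higher at each duration. The 7 dendritic cell markers summed to 46.5 to 65.1 CPM in KO and 24.2 to 31.5 CPM in WT at 2 weeks, and to 61.1 to 125 CPM in KO and 27.4 to 46.1 CPM in WT at 12 weeks, with 5 and 6 of 7 called higher. Neutrophil markers stayed low, at 11.4 to 25.5 CPM in KO and 3.64 to 9.44 CPM in WT at 2 weeks and 6.69 to 16.2 CPM in KO and 1.83 to 6.44 CPM in WT at 12 weeks. Of these the defining gene Ly6g was at 0 in both 12-week groups and Mpo at 0 in KO at 2 weeks; the 4 neutrophil markers with enough counts were all called higher at both durations. At 12 against 2 weeks in KO, 4 of 5 pan-leukocyte and 6 of 7 dendritic cell markers were called higher. So were 6 of 9 T and natural killer cell and 5 of 6 B cell markers. Macrophage markers had 3 of 14 higher and 1 lower, and neutrophil markers 1 of 4 lower. In WT 1 pan-leukocyte, 1 dendritic cell and 1 macrophage marker were called higher, and no T or B cell marker. Of all tested genes 17.7% in KO and 15.8% in WT were called higher, and 16.1% and 14.7% lower.

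Tubular injury markers summed to 5164 to 10917 CPM in KO and 558 to 709 CPM in WT at 2 weeks, and to 2498 to 5475 CPM in KO and 460 to 592 CPM in WT at 12 weeks. All 8 were called higher in KO at both durations. Fibroblast and pericyte markers summed to 395 to 1049 CPM in KO and 117 to 170 CPM in WT at 2 weeks, and to 453 to 1124 CPM in KO and 105 to 330 CPM in WT at 12 weeks, with 5 and 6 of 6 called higher. Of the 12 proximal tubule markers 10 were called lower at each duration, the targeted gene Lrp2 among them. Distal nephron markers summed to 5306 to 6486 CPM in KO and 7053 to 8592 CPM in WT at 2 weeks. At 12 weeks the sums were 2627 to 5657 CPM in KO and 3853 to 5141 CPM in WT. Of these 8 markers 4 and 3 were called lower and none higher. Among 6 endothelial markers 2 were called lower at each duration and none higher. Of all tested genes 13.4% at 2 weeks and 17.7% at 12 weeks were called lower. At 12 against 2 weeks, 3 of the 8 distal nephron markers were called lower in KO and 5 in WT. Within KO 5 of the 8 tubular injury markers were lower and 3 of the 6 fibroblast and pericyte markers higher at 12 than at 2 weeks. In WT 2 injury markers were higher and 2 lower, and 2 fibroblast and pericyte markers were higher. The part of these cell types in the levels of the 10 genes was not tested.

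**Figure D4:**
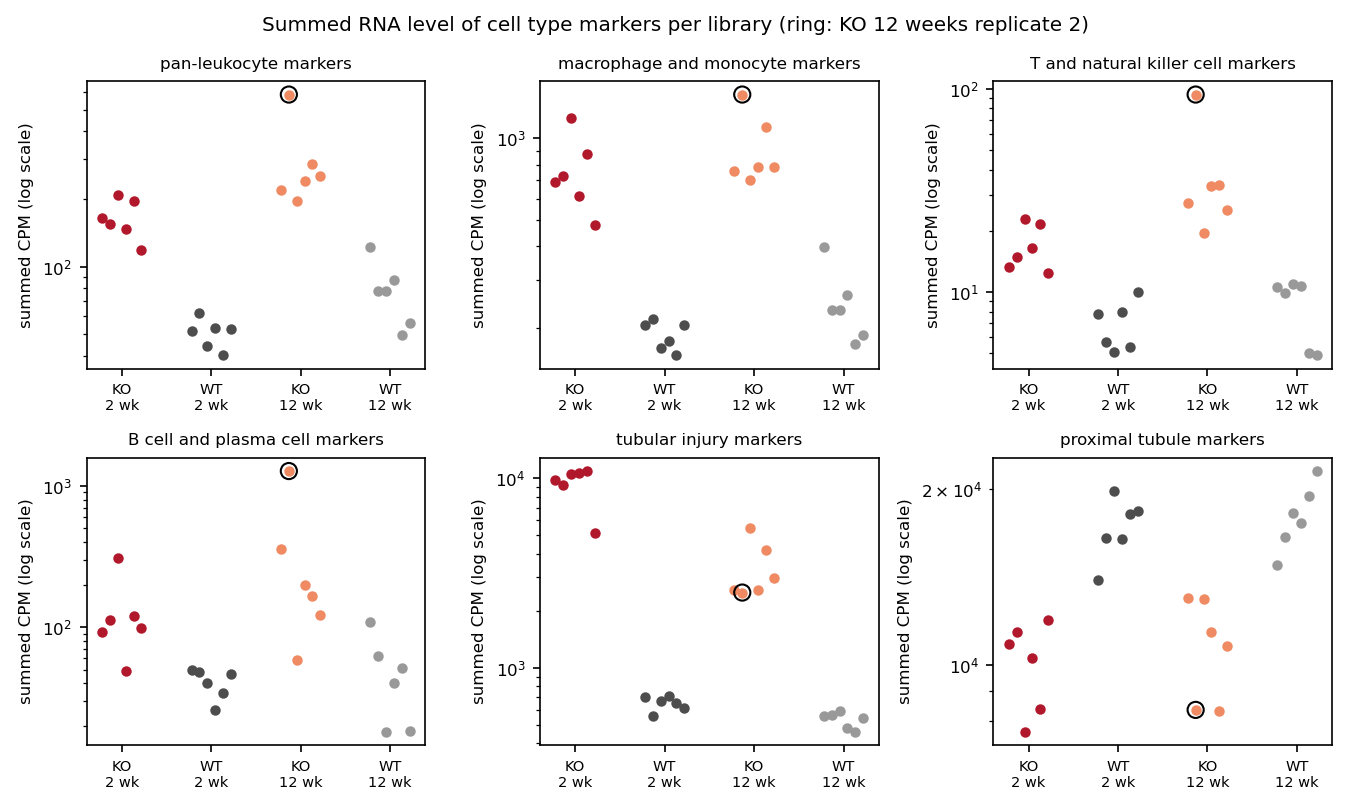
Summed CPM of marker lists in every library on a log axis, KO left of WT within each duration (n = 6 libraries per group); points are libraries and the ring marks KO replicate 2 at 12 weeks. The pan-leukocyte sum of KO replicate 2 at 12 weeks stood at 583 CPM, above the 195 to 286 CPM of the 5 other KO libraries of its duration.

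The levels of Gsdmd and Mlkl were compared with those of all tested genes as centred log2 CPM over the 24 libraries, by root mean square difference. The nearest profiles to Gsdmd were those of Hcls1 (0.254), Vsir (0.261) and Synj2 (0.261). The nearest to Mlkl were Mark1 (0.327), Lgals3bp (0.330) and Cmtm3 (0.330). Among the 10 genes the nearest to Gsdmd was Ripk3, at rank 231 with 0.404, and the nearest to Mlkl was Pycard, at rank 172 with 0.434. These values are descriptions, since the 24 libraries share their groups.

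Sensors and adaptors of the inflammasome outside the 10 genes were mostly higher in KO. Of 20 listed genes 19 were tested; 10 (52.6%) were called higher and 2 (10.5%) lower at 2 weeks, and 14 (73.7%) higher and 4 (21.1%) lower at 12 weeks, beside the 18.2% higher and 13.4% lower and the 20.7% higher and 17.7% lower of all tested genes, with median log2 fold changes of 1.04 and 1.08. Panx1, the pannexin channel that releases ATP, had 4.31 ± 1.3 CPM in KO and 1.04 ± 0.157 CPM in WT at 2 weeks (SD, n = 6 each; log2 2.07, adjusted p = 1.5e-06) and a log2 fold change of 1.96 (adjusted p = 0.00032) at 12 weeks. P2rx7, the ATP receptor upstream of NLRP3, averaged 13.6 ± 5.38 CPM in KO and 4.49 ± 1.67 CPM in WT at 12 weeks. Its log2 fold change at 2 weeks was 1.40 (adjusted p = 1.2e-05). Casp12, an inflammatory caspase, had 1.83 (adjusted p = 1.1e-06) at 2 weeks and 2.04 (adjusted p = 0.00032) at 12 weeks. The guanylate-binding protein Gbp3, of a family that helps to expose bacterial lipopolysaccharide, had 1.56 (adjusted p = 6.9e-08) and 1.33 (adjusted p = 0.00027). Naip6, of the family of sensors for bacterial flagellin and secretion systems, had 1.60 at 12 weeks (adjusted p = 0.00021). Gbp3 and Naip6 have near-identical relatives, so reads may have been split between copies.

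The sensors that fell in KO were Nlrp6 and Nlrc4 at both durations. Nlrp6 averaged 154 ± 28.6 CPM in KO and 263 ± 39.5 CPM in WT at 2 weeks (log2 -0.75, adjusted p = 9.2e-05), with a log2 fold change of -0.54 (adjusted p = 0.0051) at 12 weeks. Nlrc4, the partner of the NAIP sensors, averaged 3.82 ± 0.871 CPM in KO and 5.77 ± 0.639 CPM in WT at 2 weeks (log2 -0.56, adjusted p = 0.011) and had -0.76 (adjusted p = 0.0066) at 12 weeks. At 12 weeks Nlrx1, a mitochondrial NOD-like receptor, fell by 0.38 on the log2 scale (adjusted p = 0.025), and Nek7, the kinase that NLRP3 needs to assemble, fell by 0.22 (adjusted p = 0.034). Both of these calls ended when single libraries were left out, in 6 of 12 such fits for Nlrx1 (log2 -0.36 to -0.32) and in 8 of 12 for Nek7 (log2 -0.22 to -0.18), WT replicate 1 and KO replicate 2 among them. Part of the exons of Nlrx1, 11.9%, is shared with a gene on the opposite strand.

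Of the pyroptosis substrates and effectors 12 of 18 listed genes were tested. At 2 weeks 6 (50%) were called higher and none lower, against 18.2% and 13.4% of all tested genes. At 12 weeks 5 (41.7%) were called higher and 1 (8.33%) lower, against 20.7% and 17.7%. The median log2 fold changes were 0.52 and 0.63. Il1b, whose product caspase-1 matures, averaged 11.3 ± 3.16 CPM in KO and 2.71 ± 0.856 CPM in WT at 12 weeks (log2 2.09, adjusted p = 1.4e-05). At 2 weeks Il1b averaged 8.85 ± 3.52 CPM in KO and 2.53 ± 0.776 CPM in WT. Il1rn, the antagonist of the interleukin-1 receptor, averaged 5.44 ± 1.21 CPM in KO and 0.234 ± 0.0998 CPM in WT at 2 weeks (log2 4.58, adjusted p = 1.3e-09). At 12 weeks it averaged 3.86 ± 1.12 CPM in KO and 0.317 ± 0.425 CPM in WT, with a log2 fold change of 3.61 (adjusted p = 8.2e-05), which was 4.64 without WT replicate 1. Il33, an alarmin of the interleukin-1 family, was 4.35-fold higher (adjusted p = 3.8e-06) at 2 weeks and 2.82-fold higher (adjusted p = 0.00011) at 12 weeks.

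The protease inhibitors Serpinb9, which acts on granzyme B, and Serpinb1a, which acts on neutrophil proteases, were higher in KO, Serpinb9 by 0.95 (adjusted p = 1.8e-06) at 2 weeks and 1.23 (adjusted p = 1.1e-06) at 12 weeks and Serpinb1a by 0.86 (adjusted p = 8.5e-06) at 2 weeks on the log2 scale. Ninj1, which ruptures the plasma membrane at the end of lytic death, fell to 88 ± 5.81 CPM in KO, against 111 ± 10.5 CPM in WT, at 12 weeks (log2 -0.31, adjusted p = 0.0029). Chosen after their values were seen, Il18 and the gasdermin Gsdme were not called. Il18 had log2 fold changes of 0.03 (SE 0.19, adjusted p = 0.94) and 0.41 (SE 0.20, adjusted p = 0.13) at 2 and 12 weeks, and Gsdme 0.16 (SE 0.09, adjusted p = 0.22) and -0.21 (SE 0.17, adjusted p = 0.35).

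Triggers and regulators of necroptosis were a mixed group. Of 40 listed genes 39 were tested. At 2 weeks 17 (43.6%) were called higher and 2 (5.13%) lower, against 18.2% and 13.4% of all tested genes. At 12 weeks 15 (38.5%) were called higher and 4 (10.3%) lower, against 20.7% and 17.7%. The median log2 fold changes were 0.14 and 0.07. Birc3 and Birc2, the ubiquitin ligases cIAP2 and cIAP1 that modify RIPK1 and hold back its death signal, were both higher. Birc3 averaged 37.5 ± 5.58 CPM in KO and 12.6 ± 1.39 CPM in WT at 2 weeks (log2 1.61, adjusted p = 6.2e-09) and had 1.27 (adjusted p = 3.9e-07) at 12 weeks. Birc2 had 0.71 (adjusted p = 1.4e-06) and 0.68 (adjusted p = 4.8e-05). The tumour necrosis factor receptor Tnfrsf1a averaged 87.3 ± 9.14 CPM in KO and 50.4 ± 1.99 CPM in WT at 2 weeks (log2 0.82, adjusted p = 2.3e-07) and had 0.61 (adjusted p = 7.4e-06) at 12 weeks.

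Zbp1, the sensor of Z-form nucleic acids that activates RIPK3 without RIPK1, averaged 6.91 ± 2.6 CPM in KO and 1.91 ± 0.366 CPM in WT at 2 weeks (log2 1.89, adjusted p = 4.6e-06). At 12 weeks Zbp1 averaged 12 ± 8.64 CPM in KO and 2.63 ± 1.15 CPM in WT. Tnfaip3, the ubiquitin-editing inhibitor A20, averaged 16.5 ± 2.98 CPM in KO and 7.75 ± 1.26 CPM in WT at 2 weeks. Its log2 fold change at 12 weeks was 1.11 (adjusted p = 7.4e-05). The death ligand Tnfsf10 (TRAIL) was lower, at 64.8 ± 5.96 CPM in KO and 100 ± 17.3 CPM in WT at 2 weeks (log2 -0.61, adjusted p = 0.00012) and with -0.72 (adjusted p = 3.7e-05) at 12 weeks. The phosphatase Ppm1b, which removes phosphate from RIPK3, had -0.29 (adjusted p = 0.0016) at 2 weeks and -0.23 (adjusted p = 0.038) at 12 weeks. At 12 weeks the adaptor Ticam1 (TRIF) had -0.31 (adjusted p = 0.017) and the mitochondrial phosphatase Pgam5 -0.22 (adjusted p = 0.041). The 12-week calls of Ppm1b and Pgam5 ended in 8 and 7 of 12 fits without single libraries (log2 -0.23 to -0.18 and -0.22 to -0.17), WT replicate 1 and KO replicate 2 among them; 58.1% of the exons of Pgam5 are shared with a gene on the opposite strand.

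Apoptosis genes gave a similar balance to the necroptosis regulators, and of 30 listed 29 were tested. At 2 weeks 13 (44.8%) were called higher and 2 (6.9%) lower, against 18.2% and 13.4% of all tested genes. At 12 weeks 13 (44.8%) were called higher and 5 (17.2%) lower, against 20.7% and 17.7%. The share called lower at 12 weeks was thus near that of all tested genes. The median log2 fold changes were 0.14 and 0.21. The called genes included both killers and protectors. The pro-apoptotic Pmaip1 (Noxa) averaged 26.6 ± 3.63 CPM in KO and 10.3 ± 1.08 CPM in WT at 2 weeks (log2 1.39, adjusted p = 2.3e-08) and had 1.16 (adjusted p = 7.4e-06) at 12 weeks, and Bmf had 1.13 at 12 weeks (adjusted p = 0.00015). Of the anti-apoptotic genes, Bcl2a1d had 2.52 (adjusted p = 3e-06) and 2.48 (adjusted p = 5.4e-06), Bcl2a1a 2.39 at 2 weeks (adjusted p = 1.5e-06) and Mcl1 0.55 at 12 weeks (adjusted p = 0.00016). Bcl2a1a and Bcl2a1d are near-identical copies whose reads may be split. Birc5 (survivin), which also serves cell division, had 1.64 at 2 weeks (adjusted p = 7.7e-06).

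Bid, the link that caspase-8 cuts to reach the mitochondria, was lower, at 44.6 ± 4.68 CPM in KO and 66.8 ± 11.2 CPM in WT at 2 weeks (log2 -0.55, adjusted p = 0.00029), and had -0.69 (adjusted p = 0.00014) at 12 weeks; 17.7% of its exons lie on the opposite strand to another gene's exons. Bcl2l2 had -0.29 (adjusted p = 0.016) at 2 weeks. At 12 weeks Cycs (cytochrome c) had -0.40 (adjusted p = 0.022), Bcl2l2 -0.24 (adjusted p = 0.029), Bcl2l1 -0.23 (adjusted p = 0.042) and Casp9 -0.20 (adjusted p = 0.028). The 12-week calls of these 4 genes ended without single libraries, in 2 of 12 fits for Cycs (WT replicate 1 and KO replicate 5, log2 -0.35 to -0.31), 5 for Bcl2l2 (log2 -0.23 to -0.21), 8 for Bcl2l1 (log2 -0.23 to -0.18) and 4 for Casp9 (log2 -0.20 to -0.17).

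Ferroptosis, a lytic death driven by lipid peroxidation, was taken as a further set for comparison. Of 20 listed genes 19 were tested; 4 (21.1%) were called higher and 5 (26.3%) lower at 2 weeks, and 3 (15.8%) higher and 7 (36.8%) lower at 12 weeks, with median log2 fold changes of -0.17 and -0.18. The shares called higher were near those of all tested genes, 18.2% and 20.7%. The shares called lower were above those of all tested genes, 13.4% and 17.7%. The cystine transporter Slc7a11 was low, at 0.771 ± 0.345 CPM in KO and 0.157 ± 0.118 CPM in WT at 2 weeks (log2 2.09, adjusted p = 0.0019; 2.74 without WT replicate 1) and with 1.62 (adjusted p = 0.016) at 12 weeks. Gch1, which starts the synthesis of the antioxidant tetrahydrobiopterin, had 1.04 (adjusted p = 0.00049) and 0.74 (adjusted p = 0.0066). The lipid enzyme Acsl4 had 0.33 at 2 weeks (adjusted p = 0.0076). The haem oxygenase Hmox1 had 0.28 (adjusted p = 0.019) and 0.29 (adjusted p = 0.021), calls that ended without WT replicate 4 at 2 weeks (log2 0.24) and without KO replicate 5 at 12 weeks (log2 0.26).

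Lower in KO were the ferritin light chain Ftl1, with -0.39 (adjusted p = 0.0031) and -0.34 (adjusted p = 0.012), the ferritin receptor Ncoa4, with -0.44 (adjusted p = 0.0035) and -0.32 (adjusted p = 0.01), and Slc3a2, the partner of Slc7a11, with -0.32 (adjusted p = 0.0036) and -0.28 (adjusted p = 0.01) at 2 and 12 weeks. Gss, of glutathione synthesis, had -0.30 at 2 weeks (adjusted p = 0.0097), and Gclm, of the same pathway, -0.47 at 12 weeks (adjusted p = 0.0013). Exons of Ftl1 (26.5%), Gss (15.4%) and Gclm (4.71%) are in part shared with genes on the opposite strand. No gene of the 5 lists was called for a difference of the genotype effect between the durations. The genes of these lists were measured in the same libraries as the leukocyte and injury markers above.

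**Figure D5:**
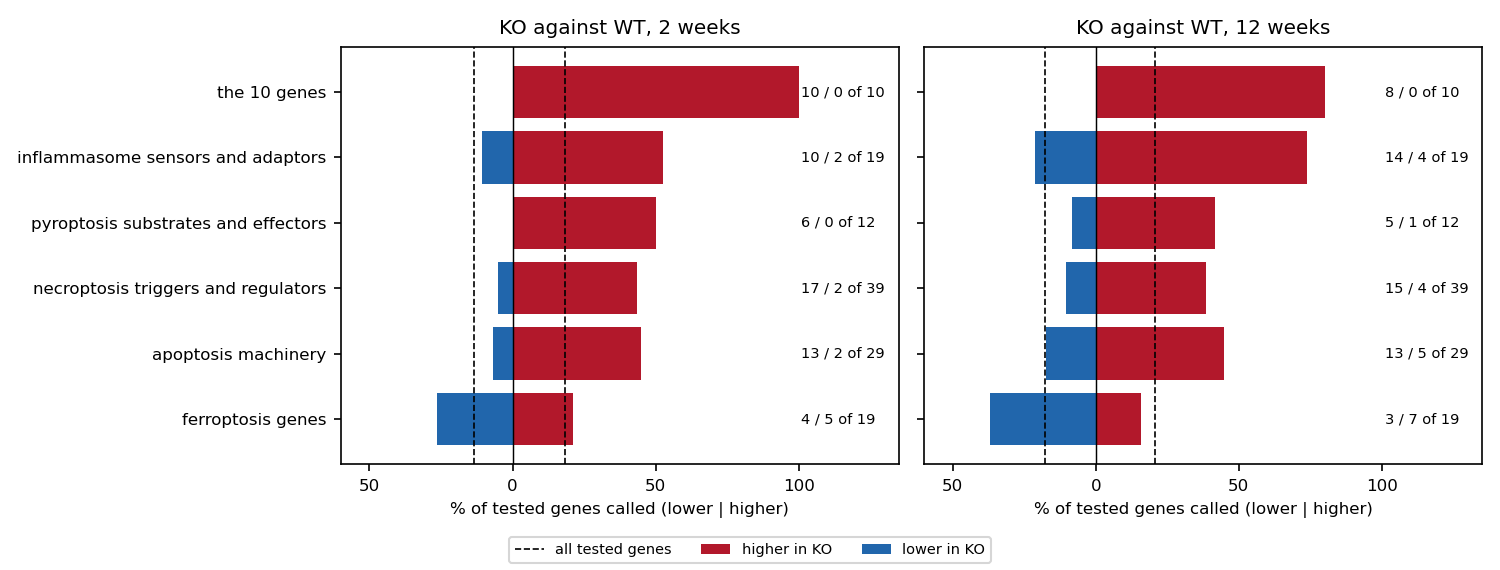
Share of tested genes called higher (right of 0) and lower (left of 0) in KO at 2 weeks (left panel) and 12 weeks (right panel) for the 10 genes and 5 lists of related genes, n = 6 libraries per group. The numbers give genes higher and lower of those tested. Dashed lines mark the shares over all tested genes (higher 18.2% and 20.7%, lower 13.4% and 17.7%). The 10 genes had 10 and 8 called higher and none lower, and the ferroptosis list had 4 and 3 higher and 5 and 7 lower.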

How the data were processed

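The authors deposited raw counts of reads per Ensembl gene, 1 file per library, with no normalization. Per the submitters' processing notes, fastp, STAR 2.5, HTSeq 0.6.1 and the build mm10 were used; their options, the handling of strand and the annotation release are not stated there. Per the labels' protocols, a Maxwell kit gave the RNA and a NEBNext Ultra kit the libraries. Of 54532 identifiers 54495 matched GENCODE M21, used for symbols, exon lengths and overlaps. Total counts per library are given in the text; counting error limits the low genes.

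Tests used edgeR 4.0.16 (R 4.3.3) on the counts: filterByExpr over the 24 libraries (minimum count 10, minimum total 15) kept 17286 genes, with TMM scaling, the robust quasi-likelihood F test, two-sided, and Benjamini-Hochberg adjustment over all tested genes; an adjusted p under 0.05 is called. Each genotype comparison used the 12 libraries of its duration; the difference between durations and the comparisons of 12 with 2 weeks used all 24. The standard error is the absolute log2 fold change over the square root of F, and intervals are 1.96 standard errors. Log2 CPM used a prior count of 2.

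The members and lists were chosen with earlier results of these data known. Named genes are the 10 members, Lrp2, up to 4 called genes of smallest adjusted p per direction and list, genes called against a list's majority, and the 3 nearest profiles to Gsdmd and Mlkl; Il18, Gsdme and Gm42418 were added after their values were seen. The rule was applied to each duration apart, so a gene named at 1 duration may differ between the genotypes at the other too. Other settings tried were upper-quartile and RLE scaling, DESeq2 1.42.0, other filters, all 24 libraries in 1 fit, a replicate block and each library left out. The labels do not state that replicate numbers pair the libraries, so the main fit used no block. Among pairs of libraries within a group none was a near-duplicate, the lowest chi-square per degree of freedom of the counts being 6.14. Pairs between groups were not compared. The fits were tested on simulated data with known changes. Of 17286 genes, 100 were changed by 1 log2 unit and 100 by 2, as many up as down, from mean levels pooled over the 24 libraries. Far more genes were called in the genotype comparisons of the real data, so the rates below need not hold there. Per comparison, 59 to 72 of 100 changes of 1 log2 unit were recovered, fewest for the difference between durations. Of 100 changes of 2 log2 units 91 to 95 were recovered. Between 7 and 15 unchanged genes were called per comparison.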

Additional observations from a re-analysis of the deposited data

Results flagged for a closer look

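Each of the 10 genes was checked in each of the 4 groups for a library far from the other 5, judged by its gap to the nearest library as a share of the group's range against Dixon's critical value of 0.625. Of 40 checks 7 passed it. Chance gives about 1 in 20 only for independent, normally distributed values. The 10 genes share the same 6 libraries in each group, so 7 of 40 cannot be set against that rate. Casp1 did so in all 4 groups, through KO replicate 5 at 2 weeks (6.11 CPM, the highest), WT replicate 4 at 2 weeks (1.86 CPM, the highest), KO replicate 2 at 12 weeks (12.9 CPM, the highest) and WT replicate 1 at 12 weeks (3.81 CPM, the highest). Pycard was at 26.2 CPM in KO replicate 2 at 12 weeks, its highest library. Aim2 was at 0.604 CPM in WT replicate 5 at 2 weeks, its lowest library. Ripk1 was at 36.4 CPM in WT replicate 4 at 12 weeks, the lowest of its group. Of these libraries, KO replicate 2 at 12 weeks also had the highest pan-leukocyte, macrophage, T cell and B cell marker sums of its group, at 583, 1447, 93.6 and 1275 CPM. WT replicate 1 at 12 weeks had the highest pan-leukocyte, macrophage and B cell sums of its group. KO replicate 5 at 2 weeks was below KO replicate 3 in the pan-leukocyte (195 against 208 CPM), macrophage (876 against 1185 CPM) and B cell (119 against 311 CPM) sums. KO replicate 5 had the highest dendritic cell and tubular injury sums of its group, at 65.1 and 10917 CPM. WT replicate 4 at 2 weeks had a macrophage sum of 179 CPM in a group of 159 to 216 CPM. Its tubular injury sum was the highest of its group, at 709 CPM. The part of these cells and of injury in the values was not tested.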

How the results depend on the processing

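The 10 and 8 members called higher in KO at 2 and 12 weeks stayed at 10 and 8 in every alternative run, each left-out library included. The number of all genes called for a difference of the genotype effect between durations moved: 20 higher and 10 lower in the fit reported, 91 and 63 with DESeq2, 6 lower without a filter on low counts, 5 lower with the replicate block, and 17 to 34 higher and 4 to 22 lower with 1 library left out. Members called higher at 12 than at 2 weeks in KO numbered 5, but 3 with upper-quartile scaling, 3 without a filter, and 2 to 6 with 1 library left out; in WT they numbered 3, but 2 without a filter. With the replicate block the genes called were 2965 higher and 2138 lower at 2 weeks and 3220 and 2730 at 12 weeks, and the members called were as many as before; at 12 weeks the small decreases of Casp9, Nek7, Nlrx1, Pgam5 and Ppm1b missed the threshold under it. Without a filter on low counts the 12-week calls of Bcl2l1, Bcl2l2, Casp9, Nek7, Pgam5 and Ppm1b ended, and with upper-quartile scaling those of Bcl2l1 and Pgam5. Residuals of libraries with equal numbers correlated at -0.1 to 0.17, and 1 of 12 KO libraries correlated best with its own number. The block was not run for 12 against 2 weeks.

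Signs turned only in small changes that were not called. In KO, 12 against 2 weeks, Mlkl was -0.01 with upper-quartile scaling and -0.01 without a filter. In WT, Ripk3 was -0.00 with DESeq2, -0.00 with RLE scaling, -0.01 with upper-quartile scaling and -0.04 without a filter. With 1 library left out, log2 values spanned 0 for the difference of effect in Pycard (-0.05 to 0.21), Casp4 (-0.27 to 0.05) and Ripk3 (-0.09 to 0.18), for KO over time in Casp8 (-0.01 to 0.09), Ripk3 (-0.06 to 0.17) and Mlkl (-0.14 to 0.21), and for WT over time in Nlrp3 (-0.11 to 0.09) and Ripk3 (-0.09 to 0.14). Low counts limit Nlrp3, Ripk3 and Aim2 in WT, with 5 to 47 counts per library. They also limit Casp1 in WT, with 18 to 46 counts at 2 weeks and 12 to 39 at 12 weeks. Mlkl in WT held 16 to 57 and 11 to 32 counts, and Casp4 15 to 63 and 19 to 45. The cause of these shifts was not tested.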
